A study of Mus musculus with 12 samples.

Results

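The growth factor receptors and insulin feedback adaptors described here are Pdgfra, Pdgfrb, Irs1, Irs2, Insr, Igf1r, Igf2r, Grb10, Egfr and Erbb3. These genes were chosen with earlier results of these data known. Every probe set whose only gene symbol in the platform table is among their names was then taken, whatever its values. This gave 29 of the 45037 probe sets tested and covered 10 of 10 genes, with 1 probe set for Irs1 and for Irs2, 2 for Pdgfrb, Igf2r and Erbb3, 3 for Pdgfra, Insr and Grb10, 5 for Igf1r and 7 for Egfr. Probe sets of 1 gene share a target and are not replicates. Total RNA from 4 groups of cells was hybridised to MOE430 v2 arrays of Affymetrix, with 3 arrays a group (12 in all), which the design text calls biological triplicates. The first pair of groups received 20 nM rapamycin or its vehicle, DMSO, for 14 h. In the second pair, confluent cells were infected for 10 h with adenovirus that carried PGC-1alpha or GFP, the medium was changed, and RNA was taken 14 h later. All 4 groups were TSC2-/- mouse embryonic fibroblasts (MEFs), so loss of TSC2 is shared by the controls, and no array of TSC2 wild-type cells was among the 12. Whether a gene is held down in TSC2-/- cells relative to wild-type cells can therefore not be read from these arrays. The labels do not say how many lines or clones the cells came from.

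Receptors for PDGF, insulin, IGF-1 and EGF are tyrosine kinases that, once bound by ligand, recruit docking proteins such as Irs1 and Irs2 and through them PI3K and AKT. AKT inhibits the TSC1-TSC2 complex, the brake on mTORC1, the kinase complex that rapamycin inhibits. Active mTORC1 feeds back on the same receptors: its substrate S6 kinase phosphorylates Irs proteins and marks them for loss, mTORC1 phosphorylates and stabilises the Grb10 protein, and cells without TSC1 or TSC2 are known for low PDGF receptor levels and weak insulin signalling. FOXO transcription factors, which AKT keeps out of the nucleus, are known to raise Insr, Irs2 and Erbb3 transcripts in several cell types.

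Values are RMA intensities, the brightness of a probe set after normalization, and were compared on the log2 scale between groups of 3 arrays. A probe set was said to rise or fall when its p from limma, adjusted by the Benjamini-Hochberg method over all 45037 probe sets, was under 0.05. Intensity depends on the probes, so levels of different probe sets were set side by side only to pick or describe bright and dim ones. Of 5 Ppargc1a probe sets 1 rose with PGC-1alpha, 1460336_at, at 2295, 2183 and 2555 on PGC-1alpha arrays and 81.0, 81.0 and 101 on GFP arrays, and the other 4 had log2 changes of -0.13 to 0.03. The Tsc2 probe set 1452105_a_at read 182, 217 and 196 on rapamycin arrays and 248, 259 and 278 on vehicle arrays, which does not check the deletion, since no wild-type array is there to set it against and no source used here says whether the probe set lies in the deleted part. The sum of 12 fibroblast markers lay between 62841 and 67018 on rapamycin arrays and between 59856 and 61473 on vehicle arrays. Array intensities of different markers do not rank cell types, and no detection calls were used, so these sums describe the groups and do not by themselves settle the cell type.

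Rapamycin raised at least 1 probe set of 6 of the 10 genes: both PDGF receptors, the IGF-1 and insulin receptors, and the docking proteins Irs1 and Irs2. Not all their probe sets rose: Insr rose on 1 of 3, Pdgfra on 2 of 3 and Igf1r on 4 of 5. The largest rise was in Pdgfrb, at 352 ± 6.7 on rapamycin arrays and 222 ± 6.4 on vehicle arrays (SD, n = 3 each). Grb10, Igf2r, Egfr and Erbb3 had no probe set that passed the test. Of the 29 probe sets 11 rose, or 37.9%, where 11.5% of all probe sets rose, and 0 fell by limma, where 14.0% of all probe sets fell. Because the genes were chosen with earlier results of these data known, these shares describe the list and are not independent evidence. At an unadjusted p under 0.05 there were 12 higher and 0 lower. The median log2 change of the 29 was 0.08, with a range of -0.14 to 0.67, beside a median of -0.001 over all probe sets. On 13 of them every rapamycin array lay above every vehicle array, against 18.0% of all probe sets, and on 0 the reverse, against 19.9%. With each gene represented by its brightest probe set, by mean log2 over all 12 arrays, 5 of the 10 rose, where 11.3% of all genes rose. Insr was the gene lost, because its brightest probe set over the 12 arrays did not change past the threshold. On the rapamycin and vehicle arrays alone, the Insr probe set that rose was the brighter on average. In bulk RNA, a change in the share of cells that express a gene and a change in its RNA per cell cannot be told apart.

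**Figure D1:**
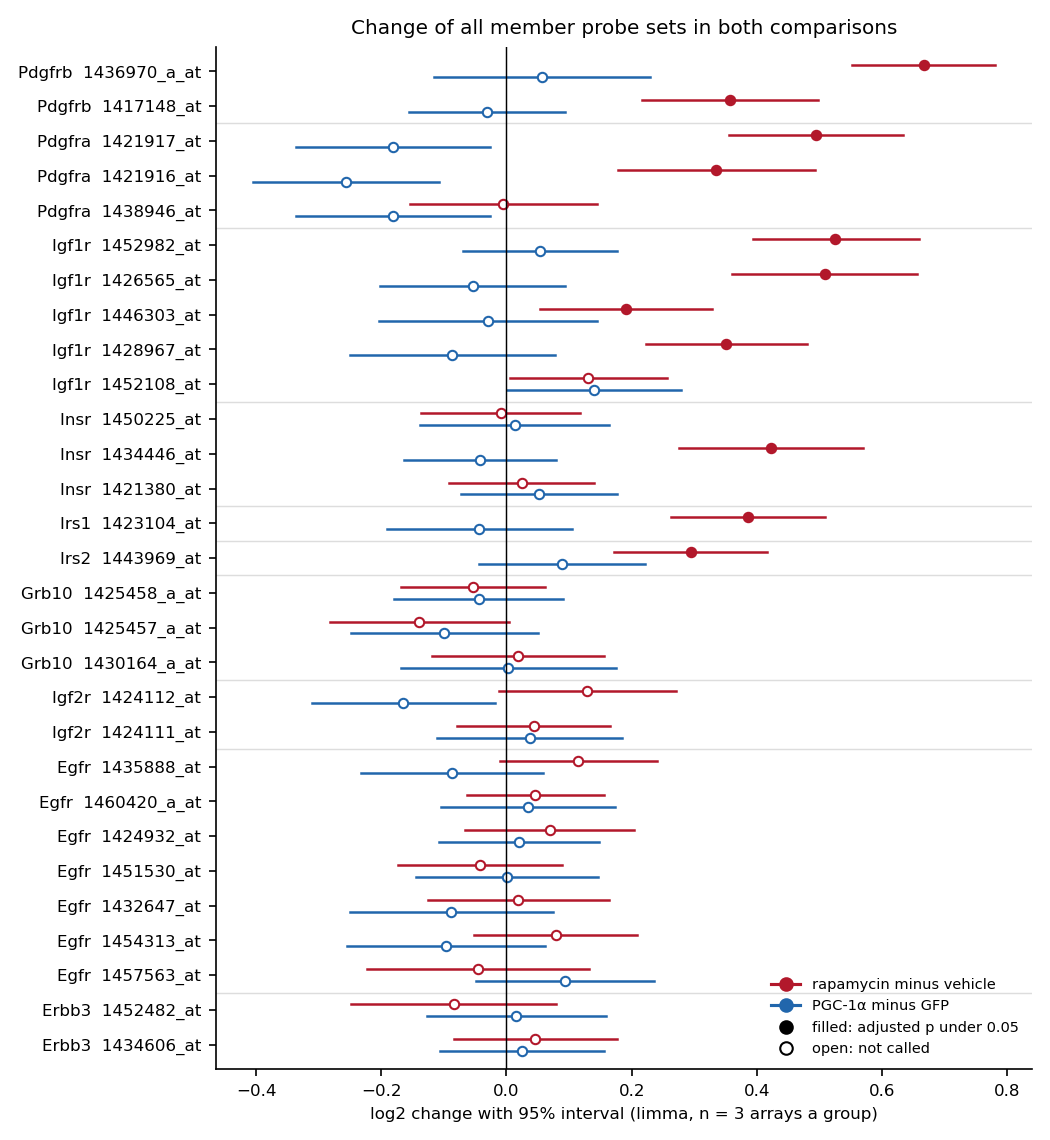
Log2 change (x axis) of each of the 29 probe sets (y axis) with its 95% interval from limma, for rapamycin minus vehicle in red and PGC-1alpha minus GFP in blue, with filled points where adjusted p was under 0.05 (3 arrays a group). The 11 filled points are all red and to the right of 0 and belong to Pdgfrb, Pdgfra, Igf1r, Insr, Irs1 and Irs2, and no PGC-1alpha point is filled.

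How the arrays were scaled bears on how many of these rises stand. RMA makes the arrays of a batch alike in their distribution of intensities, so each change is relative to the other transcripts. The 18 bacterial control probe sets, for RNAs normally added to the hybridisation mix in fixed amounts, averaged 10.62 to 10.83 (log2) on rapamycin arrays and 10.50 to 10.60 on vehicle arrays. Scaling the arrays on these controls moved the median log2 change of all probe sets to -0.191. With that scaling 5 of the 29 probe sets rose, led by Pdgfrb 1436970_a_at (0.48) and with Pdgfra, Igf1r and Insr among them, and 5 fell, from Grb10, Egfr and Erbb3. Over all 45037 probe sets that scaling gave 1448 rises and 18556 falls. By share, rises were thus more frequent and falls less frequent among the 29 than over all probe sets, which again only describes the list. Of all probe sets called with rapamycin, 7.2% were higher with that scaling, against 45.1% with the deposited scale. The ratio of the 3' to the 5' control probe set of Gapdh, a sign of RNA quality, was 0.820 ± 0.011 on rapamycin arrays and 0.849 ± 0.011 on vehicle arrays (SD, n = 3 each), with no overlap. The same ratio overlapped between the groups for beta-actin, at 1.31 ± 0.011 on rapamycin arrays and 1.31 ± 0.019 on vehicle arrays. It also overlapped for the transferrin receptor, at 3.95 ± 0.195 on rapamycin arrays and 3.67 ± 0.189 on vehicle arrays. The part of RNA quality in the member results was not tested.

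Pdgfrb encodes the receptor for PDGF-B on fibroblasts, pericytes and smooth muscle cells. Its probe set 1436970_a_at read 344, 357 and 354 on rapamycin arrays and 214, 226 and 225 on vehicle arrays. Every rapamycin array stood clear of every vehicle array, and the spread inside either group was small beside the gap. The difference was 0.67 ± 0.05 (log2 change ± SE, adjusted p = 1.6e-06), or 1.59-fold with a 95% interval of 1.47 to 1.72. The other probe set, 1417148_at, read 252, 290 and 258 on rapamycin arrays and 198, 215 and 211 on vehicle arrays. These groups did not overlap either, and the rise was smaller, at 0.36 (adjusted p = 0.00099). Scaled on the bacterial controls it was 0.17 and did not pass (adjusted p = 0.10).

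Pdgfra encodes the receptor that binds PDGF-A and is a marker of many mesenchymal progenitors. Its brightest probe set, 1421917_at, read 2424, 2625 and 2346 on rapamycin arrays and 1624, 1795 and 1829 on vehicle arrays. All 3 rapamycin values were above all 3 vehicle values, a 1.41-fold rise with a 95% interval of 1.28 to 1.55 (log2 change 0.50, adjusted p = 7.2e-05). Probe set 1421916_at read 779.7, 934 and 767 on rapamycin arrays and 645, 673 and 640.0 on vehicle arrays. Rapamycin replicate 2 was the highest of these 6 arrays, the groups did not overlap, and the log2 change was 0.34 (adjusted p = 0.0036). With the bacterial control scaling it was 0.15 and did not pass (adjusted p = 0.15). The dim probe set 1438946_at lay between 87.0 and 101 over the 6 arrays, with a change near 0 and a 95% interval of -0.154 to 0.144. That interval leaves out the changes measured by the other Pdgfra probe sets.

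**Figure D2:**
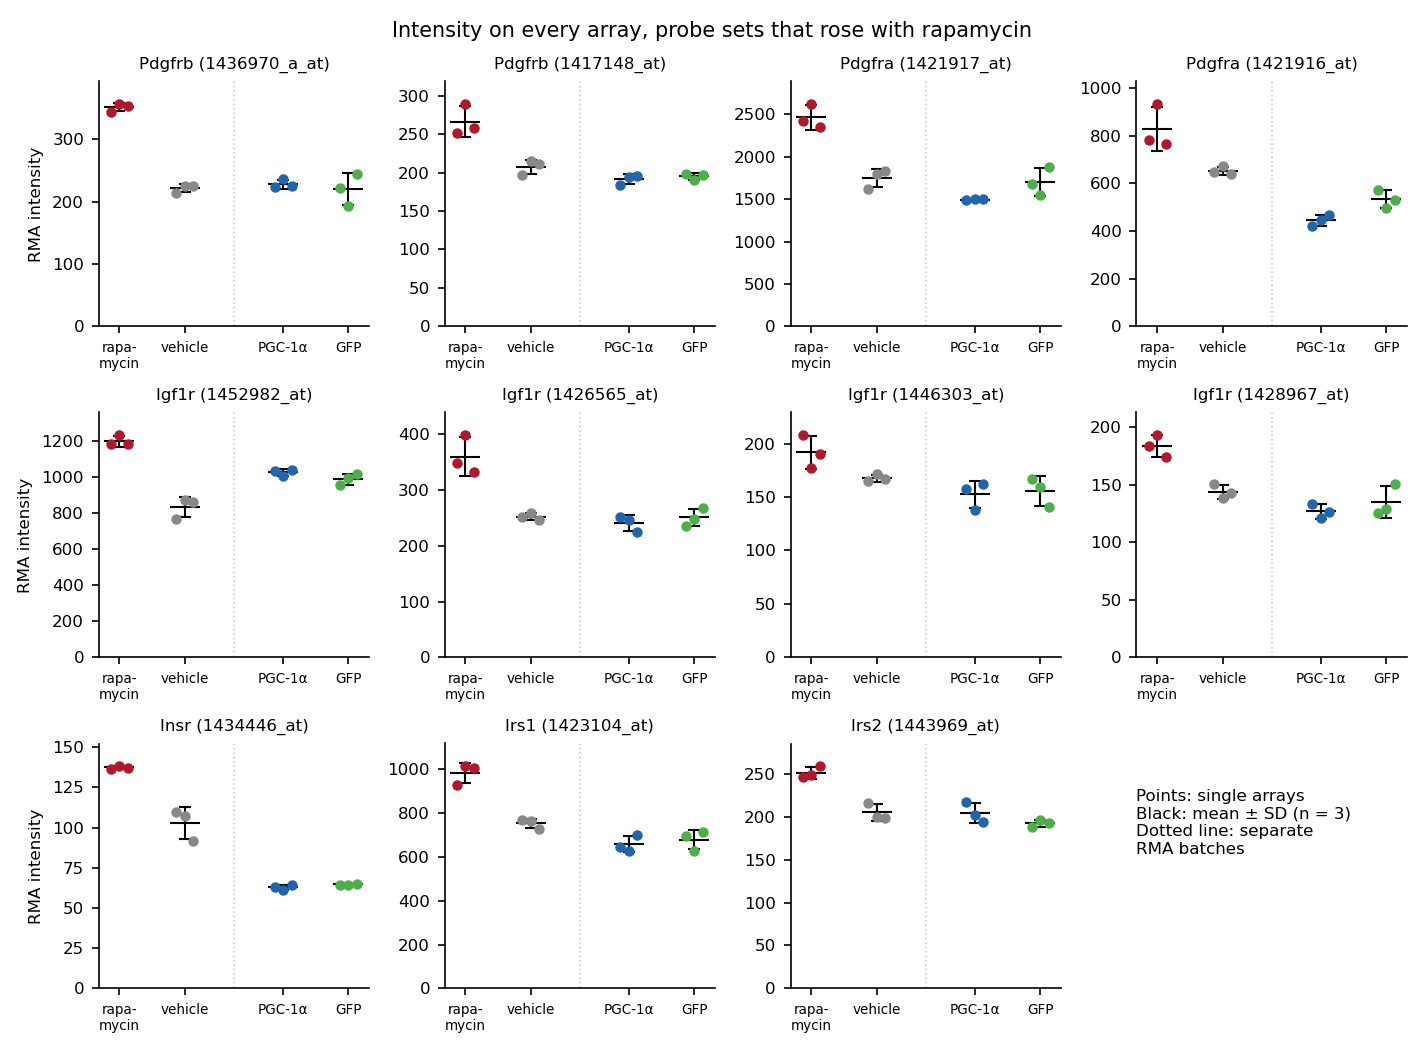
RMA intensity (y axis, linear, from 0) on every array for the 11 probe sets that rose with rapamycin, 1 panel each, with points for single arrays and black lines for the mean ± SD of 3 arrays. In all 11 panels the 3 rapamycin points lie above the 3 vehicle points, while PGC-1alpha and GFP points overlap except for Pdgfra, where PGC-1alpha is lower (for example 422 to 468 against 497 to 574 for 1421916_at).

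Igf1r encodes the receptor for IGF-1 and IGF-2, closely related to the insulin receptor. Its probe set 1452982_at read 1183, 1237 and 1183 on rapamycin arrays and 769.9, 873 and 864 on vehicle arrays. The groups stood well apart, a rise of 1.44-fold with a 95% interval of 1.31 to 1.58 (log2 change 0.53, adjusted p = 2.9e-05). Probe set 1426565_at read 348, 399.5 and 332 on rapamycin arrays and 252, 259 and 246 on vehicle arrays, also without overlap, with a log2 change of 0.51 (adjusted p = 9.6e-05). For 1428967_at the values were 183, 193 and 174 on rapamycin arrays and 150.4, 138 and 143 on vehicle arrays, again without overlap, with a log2 change of 0.35 (adjusted p = 0.00059). On the bacterial control scale the last of these was 0.16 and did not pass (adjusted p = 0.11).

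The remaining Igf1r probe sets were less clear. Probe set 1446303_at read 208, 177 and 189.9 on rapamycin arrays and 165, 171 and 167 on vehicle arrays. Rapamycin replicate 2 lay just above the vehicle arrays, the log2 change was 0.19 and the adjusted p was 0.043. That call was lost when any 1 array other than rapamycin replicate 2 was left out, with adjusted p between 0.073 and 0.17. It was also lost when all 12 arrays were quantile normalized together (adjusted p = 0.059) or fitted together (adjusted p = 0.076), and on the bacterial control scale the change was 0.002 (adjusted p = 0.99). Probe set 1452108_at read 61.1, 65.6 and 58.7 on rapamycin arrays and 56.2, 54.9 and 58.1 on vehicle arrays. These groups did not overlap, but the change of 0.13 missed the threshold (adjusted p = 0.13).

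Insr encodes the insulin receptor, and its 3 probe sets differed. Probe set 1434446_at read 137, 139 and 137 on rapamycin arrays and 109.5, 107 and 91.7 on vehicle arrays. The groups stood apart, with the lowest vehicle array well below the other vehicle arrays, and the rise was 1.34-fold with a 95% interval of 1.21 to 1.48 (log2 change 0.42, adjusted p = 0.00039). Probe set 1450225_at was the brightest over all 12 arrays, though not on the rapamycin and vehicle arrays alone. It read 111, 105 and 103 on rapamycin arrays and 103, 105 and 113 on vehicle arrays. These values overlapped throughout, with a 95% interval of -0.136 to 0.117 for the log2 change, which does not reach the rise of 1434446_at. Probe set 1421380_at is among the dimmest members, at about 25 on all arrays, and had a change of 0.02 (adjusted p = 0.81). The mean of the 3 probe sets rose by 0.15 (adjusted p = 0.02).

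Irs1 and Irs2 encode the main docking proteins of the insulin and IGF-1 receptors, which carry phosphotyrosines that bind PI3K. The single Irs1 probe set, 1423104_at, read 931, 1017 and 1006 on rapamycin arrays and 768, 764 and 729 on vehicle arrays. All rapamycin values were above all vehicle values, a rise of 1.31-fold with a 95% interval of 1.20 to 1.42 (log2 change 0.39, adjusted p = 0.00019). The single Irs2 probe set, 1443969_at, read 246, 249 and 259.5 on rapamycin arrays and 217, 200.1 and 199 on vehicle arrays. The groups did not overlap, and the rise was 1.23-fold with a 95% interval of 1.13 to 1.33 (log2 change 0.29, adjusted p = 0.0015). Scaled on the bacterial controls, the change of Irs1 was 0.20 (adjusted p = 0.055) and that of Irs2 was 0.10 (adjusted p = 0.29), neither past the threshold.

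Promoter windows of the members were searched because 6 of them rose together and FOXO factors are known to act on some. Windows are the 250 bases before each annotated start, from RefSeq in build GRCm38.p6. Of the 10 genes 7 were found there, with 8 windows, since Grb10 has 2. No window was available for Pdgfrb, Insr and Erbb3, so they were not searched. Searched on both strands were CAAAACA, the core of the insulin response element that FOXO factors bind, GTAAACA, the forkhead consensus core, and CACGTG, the E-box read by Myc and by the TFEB family. Shown are the 3 windows with a match, 5′ to 3′ along the gene's strand, with matches in capitals. In the Irs1 and Irs2 windows CAAAACA lies on the opposite strand and reads TGTTTTG.
Irs1, chr1:82291440-82291689, minus strand: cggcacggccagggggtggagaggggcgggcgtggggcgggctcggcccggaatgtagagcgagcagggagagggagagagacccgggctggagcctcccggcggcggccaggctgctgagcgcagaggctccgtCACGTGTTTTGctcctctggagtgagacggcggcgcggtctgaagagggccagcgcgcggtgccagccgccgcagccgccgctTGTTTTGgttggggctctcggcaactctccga
Irs2, chr8:11008930-11009179, minus strand: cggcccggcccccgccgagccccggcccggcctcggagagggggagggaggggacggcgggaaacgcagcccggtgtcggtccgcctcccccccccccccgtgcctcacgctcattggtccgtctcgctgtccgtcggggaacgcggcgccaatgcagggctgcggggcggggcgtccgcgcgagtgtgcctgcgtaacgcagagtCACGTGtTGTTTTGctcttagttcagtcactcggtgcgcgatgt
Igf2r, chr17:12769707-12769956, minus strand: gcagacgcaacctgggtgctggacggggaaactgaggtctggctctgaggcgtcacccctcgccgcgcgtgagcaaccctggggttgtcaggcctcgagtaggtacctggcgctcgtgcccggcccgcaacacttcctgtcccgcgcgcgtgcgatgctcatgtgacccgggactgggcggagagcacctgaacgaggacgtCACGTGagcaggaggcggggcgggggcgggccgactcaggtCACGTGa

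The Irs1 window held TGTTTTG at -111 to -105 and at -32 to -26, counted from the start site, and CACGTG at -115 to -110, which overlaps the upstream TGTTTTG by 2 bases. The Irs2 window held CACGTG at -44 to -39 and TGTTTTG at -37 to -31. Of the 7 genes, only these 2 docking proteins had both motifs. The Igf2r window held CACGTG at -48 to -43 and at -7 to -2 and no insulin response element core. No match to any of the 3 motifs was found in the windows of Pdgfra, Igf1r, Grb10 and Egfr, and GTAAACA was in none of the 8. Over 32851 promoter windows of the same length, CAAAACA was in 5.56%, GTAAACA in 3.17%, CACGTG in 6.02%, and both CAAAACA and CACGTG in 0.295%. These shares are over all windows, not matched for base content, and the Irs1 and Irs2 windows are 72.4% and 72.8% G and C. Whether the pair of motifs is enriched was not tested. A match describes letters in the window and was not tested as a binding site.

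**Figure D3:**
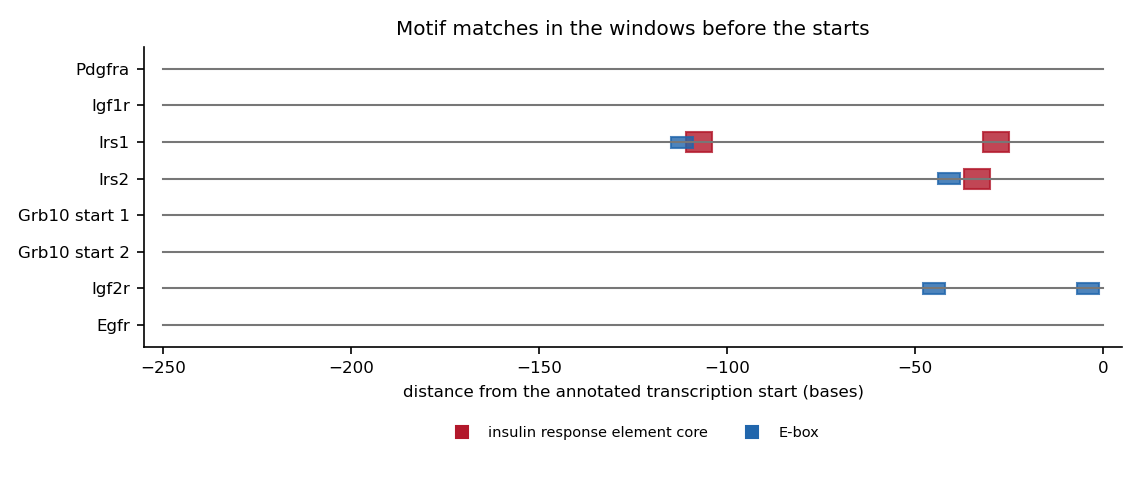
Position of motif matches (x axis, bases from the annotated transcription start) in the 8 promoter windows of 7 member genes (y axis), with the insulin response element core in red and the E-box in blue. Irs1 and Irs2 carry both, Igf2r carries 2 E-boxes, and the other 5 windows carry neither.

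Grb10 encodes an adaptor that binds the insulin and IGF-1 receptors and inhibits them. Its brightest probe set, 1425458_a_at, read 5515, 5899 and 5566 on rapamycin arrays and 5871, 5914 and 5822 on vehicle arrays. The groups overlapped, and the log2 change of -0.05 had a 95% interval of -0.168 to 0.062 (adjusted p = 0.55). Probe set 1425457_a_at read 1193, 1384 and 1178 on rapamycin arrays and 1405, 1367 and 1352 on vehicle arrays. Here rapamycin replicates 1 and 3 were below every vehicle array and replicate 2 was among them, with a change of -0.14 (adjusted p = 0.16). Without rapamycin replicate 2 that change was -0.21 and passed the test (adjusted p = 0.013). The last Grb10 probe set, 1430164_a_at, had a change of 0.02 (adjusted p = 0.89).

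Igf2r, the mannose 6-phosphate receptor that takes up IGF-2 for breakdown and sends no kinase signal, had 2 probe sets. Of these, 1424112_at read 1299, 1422 and 1221 on rapamycin arrays and 1203, 1252 and 1145 on vehicle arrays, which overlapped (log2 change 0.13, adjusted p = 0.18). When all 12 arrays were quantile normalized together its change was 0.20 and passed the test (adjusted p = 0.023). The other, 1424111_at, had a change of 0.04 (adjusted p = 0.66). Egfr, the EGF receptor, had 7 probe sets with changes between -0.05 and 0.11 (lowest adjusted p = 0.18). On one of them, 1460420_a_at, the values were 447, 443 and 450.5 on rapamycin arrays and 434, 428 and 436 on vehicle arrays, which did not overlap, but the change was only 0.05 (adjusted p = 0.59). Egfr 1435888_at read 537, 577 and 547 on rapamycin arrays and 503, 539.7 and 492 on vehicle arrays. Those groups overlapped (log2 change 0.11, adjusted p = 0.18), and this change too passed under that normalization, at 0.20 (adjusted p = 0.01). Erbb3, a receptor for neuregulins with little kinase activity of its own, was dim, between 60.5 and 85.9 on the 6 arrays over both probe sets, with changes of -0.08 and 0.05 (adjusted p = 0.49 and 0.66).

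**Figure D4:**
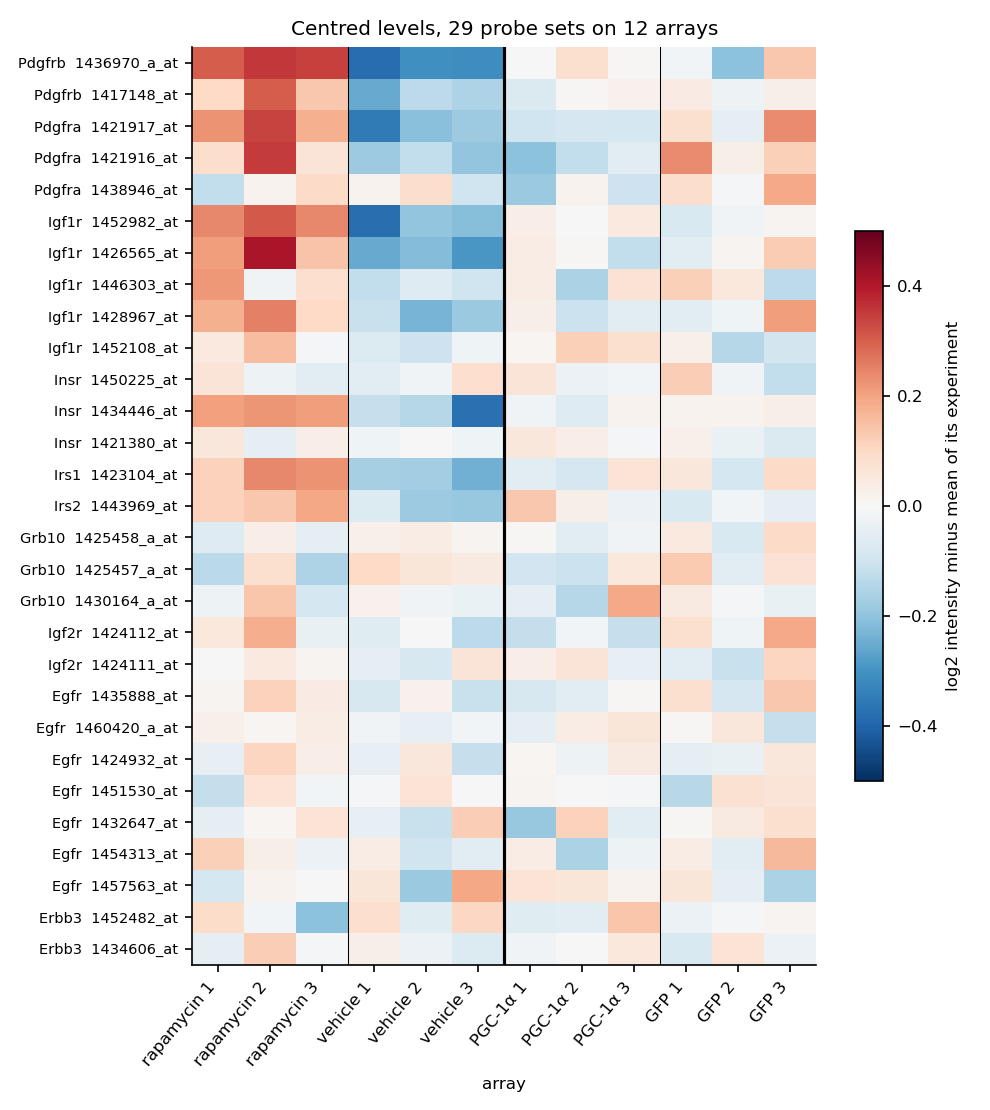
Log2 intensity minus the mean of its own experiment (colour, red above and blue below) for the 29 probe sets (y axis) on the 12 arrays (x axis), with a thick line between the 2 RMA batches. Red on rapamycin arrays and blue on vehicle arrays fill the lines of Pdgfrb, of the 2 brighter Pdgfra probe sets, of 3 of the 5 Igf1r probe sets, of Insr 1434446_at, and of Irs1 and Irs2, whereas Grb10, Egfr and Erbb3 show no such block. Rapamycin replicate 2 is often the deepest red.

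A single array stood out among those treated with rapamycin. Replicate 2 had the highest value of the 3 rapamycin arrays on 20 of the 29 probe sets, where it was highest on 43.5% of all probe sets. Leaving it out kept 11 rises. Over all 6 ways to leave out 1 array, 10 or 11 of the 29 rose and 0 or 1 fell.

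PGC-1alpha, the transcriptional coactivator of mitochondrial genes, raised none of these genes past the threshold. By limma 0 of the 29 probe sets were called, where 0.997% of all probe sets were higher and 0.955% lower (1.95% in all), and 5 had an unadjusted p under 0.05 (17.2%, beside 11.6% of all probe sets), 1 higher and 4 lower. The median log2 change was -0.03, with a range of -0.26 to 0.14. The nearest to a call was Pdgfra. Its probe set 1421916_at read 422, 447 and 468 on PGC-1alpha arrays and 574, 497 and 528 on GFP arrays. All PGC-1alpha values were below all GFP values, with a log2 change of -0.26 (adjusted p = 0.09). Probe set 1421917_at read 1485, 1501 and 1498 on PGC-1alpha arrays and 1683, 1543 and 1875 on GFP arrays, also without overlap, with a change of -0.18 (adjusted p = 0.31). These were the 2 member probe sets on which every PGC-1alpha array was below every GFP array, against 7.91% of all probe sets. On 0 of the 29 was every PGC-1alpha array above every GFP array, against 7.76% of all.

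Apart from those of Pdgfra, the probe sets that rose with rapamycin overlapped between PGC-1alpha and GFP arrays. Pdgfrb 1436970_a_at read 223, 236 and 225 on PGC-1alpha arrays and 222, 194 and 245 on GFP arrays. Insr 1434446_at read 62.9, 61.0 and 64.5 on PGC-1alpha arrays and 64.5, 64.5 and 65.0 on GFP arrays. Irs1 1423104_at read 645, 629.8 and 701 on PGC-1alpha arrays and 694, 629 and 713 on GFP arrays. The groups overlapped, for Insr only just, and the 95% intervals of these 3 log2 changes were -0.116 to 0.229, -0.163 to 0.079 and -0.191 to 0.104 in that order. Irs2 1443969_at read 218, 202 and 194 on PGC-1alpha arrays and 188, 196 and 192 on GFP arrays, which overlapped (log2 change 0.09, adjusted p = 0.68). Grb10 1425458_a_at read 4207, 4029 and 4130.0 on PGC-1alpha arrays and 4326, 3967 and 4473 on GFP arrays, also with overlap (log2 change -0.04, adjusted p = 0.89).

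Whether the 2 treatments differed in their effect was tested directly, as the rapamycin effect minus the PGC-1alpha effect in 1 fit of all 12 arrays. The rapamycin effect was the higher on 10 of the 29 probe sets, or 34.5%, where this held for 8.70% of all probe sets, and the lower on 0, where this held for 12.0%. As the genes were chosen with earlier results of these data known, these shares too describe the list and are not independent evidence. At an unadjusted p under 0.05 there were 12 higher and 0 lower by limma. The largest differences were in the PDGF receptors, at 0.68 for Pdgfra 1421917_at (adjusted p = 5.2e-05) and 0.61 for Pdgfrb 1436970_a_at (adjusted p = 0.00013). Both other rising probe sets of these receptors passed as well, at 0.59 for Pdgfra 1421916_at and 0.39 for Pdgfrb 1417148_at. The Pdgfra differences also hold PGC-1alpha changes that were not called, -0.18 for 1421917_at and -0.26 for 1421916_at. With rapamycin against vehicle, Pdgfra 1421917_at rose by 0.50, less than Igf1r 1452982_at (0.53). For Igf1r the 3 clear risers differed by 0.44 to 0.56, for Insr 1434446_at the difference was 0.47 (adjusted p = 0.00067), and for Irs1 it was 0.43 (adjusted p = 0.0015). Insr 1450225_at and 1421380_at differed by only -0.02 and -0.03 (adjusted p = 0.91 and 0.86). The mean of the Insr probe sets differed by 0.14 and did not pass (adjusted p = 0.11). Irs2 differed by 0.21 ± 0.08 (SE) and did not pass (adjusted p = 0.092), a call that depends on the setting. It passed under quantile normalization of the 12 arrays (0.23, adjusted p = 0.048), without PGC-1alpha replicate 1 (0.25, adjusted p = 0.048) and with genes in place of probe sets in the fit (adjusted p = 0.046). Igf2r 1424112_at, which on the deposited values was called in neither experiment by itself, had a difference of 0.29 (adjusted p = 0.034) that was lost in 8 of 12 fits with 1 array left out. Scaled on the bacterial controls, 0 of the 29 differences were higher and 3 lower. The 2 experiments also differ in vehicle, infection, timing and RMA batch, and cell density is described here only for the infected cells. None of these can be told apart from the agent.

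On the deposited scale, the rest of the signalling chain held both rises and falls with rapamycin. Over 6 lists of pathway and imprinted genes, 117 of 123 genes were measured, each by its brightest probe set. Of these 20 rose and 15 fell, where 11.3% of all genes rose and 18.0% fell. The lists were chosen with earlier results of these data known, so these shares only describe them. Scaled on the bacterial controls, 4 of the 117 rose and 50 fell, where 1448 of all 45037 probe sets rose and 18556 fell. Among 16 growth factor ligands 2 rose and 1 fell, with a median log2 change of 0.02. The risers were Fgf2 (0.31) and Nrg2 (0.30, on 1 of its 3 probe sets), and Vegfa, the main angiogenic factor, fell by 0.38 on 1 of 2 probe sets. Among 24 other receptor tyrosine kinases 2 rose and 4 fell (median -0.01). The collagen receptor Ddr1 rose by 0.43, on 6 of 8 probe sets, and the ephrin receptor Ephb4 by 0.21, while the collagen receptor Ddr2 fell by 0.27 and Ret by 0.21, each on 1 of 2 probe sets, and Tyro3 fell by 0.18 on 2 of 2. The 20 other docking proteins and adaptors gave 2 rises, of the Ras exchange factor Sos2 (0.29) and Irs3 (0.21), and 1 fall, of the phosphatase Ptpn11 (-0.21, on 2 of 3 probe sets), with a median of -0.02.

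Below the docking proteins, 4 of 19 measured genes of the PI3K and AKT module rose and 5 fell (median 0.01). Pik3r3, a regulatory subunit of PI3K, fell by 0.75 (adjusted p = 1.3e-05), the catalytic subunit Pik3cb by 0.28, and Akt1 by 0.27, on 2 of 4 probe sets. The FOXO factor Foxo3 rose by 0.47 (adjusted p = 0.00012), on 2 of 3 probe sets, the phosphatase Inpp4a by 0.27, on 1 of 2 probe sets, and Gsk3b, a kinase that AKT inhibits, by 0.26, on 2 of 6 probe sets. Of 24 receptor attenuators 4 rose and 3 fell (median 0.01). Rises were seen in Cul7 (0.43), a scaffold of the ubiquitin ligase that acts on Irs1, in the ubiquitin ligase Cblb (0.28, on 1 of 3 probe sets) and in the EGF receptor inhibitor Errfi1 (0.26). Falls were seen in Socs6 (-0.35, on 1 of 3), Lrig1 (-0.31, on 2 of 3) and the phosphatase Ptpn2 (-0.30, on 2 of 4). With PGC-1alpha the single call among the 117 was a fall of Gsk3b, at -0.57 (adjusted p = 0.014) on 1 of 6 probe sets. Each of these medians lies near the median of all probe sets.

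**Figure D5:**
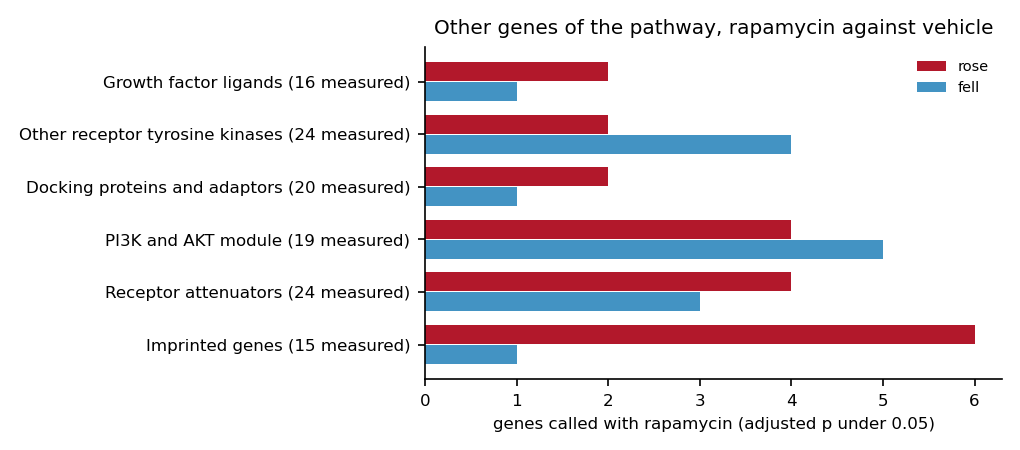
Number of genes (x axis) that rose (red) or fell (blue) with rapamycin against vehicle at an adjusted p under 0.05 in each of 6 gene lists (y axis), each gene by its brightest probe set. Rises and falls are mixed in 5 lists, for example 4 and 5 in the PI3K and AKT module, and the imprinted genes have 6 rises and 1 fall.

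Markers of fibroblasts and of other cell types were read in the same fit. Of 12 fibroblast markers 5 rose with rapamycin, where 11.3% of all genes rose and 18.0% fell. The sum of 7 smooth muscle and pericyte markers was 19198 to 19841 on rapamycin arrays and 16810 to 17147 on vehicle arrays, with 2 that rose and 1 that fell. The median log2 change of these 7 was -0.04, so the higher sum does not describe the typical marker. The sum of 7 macrophage and leukocyte markers was 650 to 666 on rapamycin arrays and 605 to 614 on vehicle arrays, with 2 rises. That of 7 epithelial markers was 1194 to 1250 on rapamycin arrays and 1112 to 1157 on vehicle arrays, also with 2 rises. Sums of the endothelial and neural markers overlapped between rapamycin and vehicle arrays. The smooth muscle and pericyte sum was also higher on PGC-1alpha arrays (15816 to 16304) than on GFP arrays (15105 to 15685). So was the fibroblast sum, at 55220 to 55646 against 50801 to 55125. The macrophage and epithelial sums overlapped between PGC-1alpha and GFP arrays. A value of 0 cannot occur on this scale, whose lowest intensity is 9.299. The part of these markers in the member results was not tested.

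Among 18192 other genes, the patterns most like that of Pdgfrb 1436970_a_at over the 12 arrays were those of Phkb, Erlec1 and Smim14. Their root mean square differences from it, in log2 values centred within each experiment, were 0.051, 0.053 and 0.054. Phkb, a subunit of phosphorylase kinase, had a log2 change of 0.61 with rapamycin and -0.02 with PGC-1alpha. Erlec1, an endoplasmic reticulum lectin, had 0.64 and 0.03, and Smim14 had 0.66 and 0.01. This likeness is a description over 12 arrays, chosen by the pattern itself.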

How the data were processed

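The labels put 12 arrays (Affymetrix MOE430 v2) into 4 groups of 3 samples. Per the labels' protocols, Trizol was used to isolate RNA and biotin to label it. Each deposited value is the intensity of a probe set, which the authors made with RMA at default settings in BioConductor 1.2, in 1 batch for rapamycin and vehicle and another for PGC-1alpha and GFP, per the series design text. No source used here states the scale; values of 9.299 to 21072.4, with array medians of 77.5 to 81.0, were taken as linear, and log2 was computed with no offset. Levels were compared only within a batch. Detection calls were not used. Precision is limited by the number of arrays. The p-values measure the spread between these triplicates.

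Of 45101 probe sets, 64 controls were left out. Of the 45037 tested, 34945 had 1 gene symbol, 932 several and 9160 none listed; only those with 1 symbol were named. Symbols were brought up to date by Entrez ID to a RefSeq GRCm38.p6 table, which held 34741 of these. For each comparison, limma 3.58.1 (lmFit, eBayes) in R 4.3.3 was run on the 6 arrays concerned, two-sided, with adjusted p-values over all probe sets and a threshold of 0.05. The difference of the 2 effects came from 1 fit of 4 group means over 12 arrays. Tables and figures used Python 3.11.15, pandas 2.3.3 and matplotlib 3.10.9. Tested on simulated data for the rapamycin arrays, the fit recovered 81% of probe sets changed by 0.5 and 100% of those changed by 1 (log2). For the PGC-1alpha arrays it recovered 84% and 99%. There were 7 and 6 false calls among the probe sets left unchanged. Only 100 probe sets were changed at each size, far fewer than the 25.5% called with rapamycin, so these rates need not hold for the real arrays.

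The members and gene lists were chosen with earlier results of these data known. All member probe sets are reported. From other lists, up to 3 rises and 3 falls per list were named, by size of change, among genes past the threshold whose groups did not overlap. Likeness to the member with the largest rise was taken over all 12 arrays. Alternatives were other normalizations and scaling, a filter on dim probe sets, an offset, a trended and robust fit, a fit of all 12 arrays, a replicate block, leaving out each array, and the mean of a gene's probe sets.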

Additional observations from a re-analysis of the deposited data

How the results depend on the processing

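The 11 rises with rapamycin stayed at 10 or 11 when any 1 array was left out, with 0 or 1 fall, and the PGC-1alpha comparison gave 0 to 0 member calls in each direction. Effects that differed between treatments numbered 9 to 11 higher and 0 to 0 lower. Over all probe sets these fits gave 3947 to 5002 higher and 5148 to 6691 lower with rapamycin, and 113 to 1957 higher and 166 to 880 lower with PGC-1alpha, the most without GFP replicate 3 (1957 and 880). List genes gave 17 to 20 higher and 10 to 21 lower with rapamycin, and 0 to 7 higher (7 without GFP replicate 3) and 0 to 1 lower with PGC-1alpha.

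Scaling on the bacterial controls changed most. With rapamycin it gave 5 member rises and 5 falls, 1448 higher and 18556 lower probe sets, and 4 higher and 50 lower list genes. With PGC-1alpha it gave 296 higher and 29 lower probe sets (91.1% of calls higher, against 51.1%) and 0 lower list genes. The differences between treatments fell to 0 higher and 3 lower, and that of Igf2r 1424112_at turned to -0.063. This scaling moved the median change of all probe sets to 0.165 with PGC-1alpha and the median difference to -0.352. The cause was not tested.

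Quantile normalization over 12 arrays gave 32 higher list genes with rapamycin and 1 with PGC-1alpha. An offset of 16 gave 295 higher probe sets and 0 lower list genes with PGC-1alpha. The fit of all 12 arrays gave 807 higher and 678 lower probe sets and 2 higher list genes with PGC-1alpha. The mean of a gene's probe sets gave 0 lower list genes there, and called 6 of 10 members higher with rapamycin.

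Deviations from the group mean of same-numbered arrays had correlations of -0.052, 0.072 and 0.005 for rapamycin and vehicle. For PGC-1alpha and GFP these were -0.133, 0.231 and -0.011. Between arrays of unlike number they were -0.14 to 0.149 for rapamycin and vehicle, and -0.216 to 0.206 for PGC-1alpha and GFP. Same-numbered arrays were thus not regularly more alike, although the 0.231 of replicate 2 was the highest of its comparison, and the numbers were not taken as pairs. With the replicate number as a block, 10 members rose and 0 fell with rapamycin (5128 and 6243 of all probe sets), 0 were called with PGC-1alpha (436 and 395 of all), 10 effects differed, and 21 list genes rose and 15 fell. Igf1r 1446303_at then missed the threshold (adjusted p = 0.052).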

Other observations

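Grb10 and Igf2r are imprinted, expressed from 1 parental copy in many tissues, and other imprinted genes were read beside them. Of 16 listed, 15 were measured, and with rapamycin 6 rose and 1 fell, with a median log2 change of 0.12. Over all genes 11.3% rose and 18.0% fell, and the median over all probe sets was -0.001. This list was chosen with earlier results of these data known, so its counts and median describe it and are not independent evidence. They are on the deposited scale. Over all 6 lists 20 genes rose on that scale and 4 with the bacterial control scaling. Meg3, a long noncoding RNA, rose 2.14-fold (log2 change 1.10, adjusted p = 5.3e-08 by limma), on 9 of 11 probe sets. The brightest of them read 1399.6, 1484 and 1418 on rapamycin arrays and 669, 671 and 671 on vehicle arrays, with no overlap. Plagl1, a zinc finger factor that acts on other imprinted genes, rose by 0.36, on 1 of 3 probe sets, and Sgce, a sarcoglycan, by 0.34, on 2 of 2. The amino acid transporter Slc38a4 fell by 0.30, on 2 of 2.

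Probe set 1440979_at carries the symbols Airn and Igf2r, the antisense RNA of the imprinted locus and the receptor, and was therefore not counted as a member. It read 65.0, 78.7 and 65.6 on rapamycin arrays and 72.9, 63.9 and 71.0 on vehicle arrays, and 53.5, 57.0 and 52.7 on PGC-1alpha arrays and 63.6, 60.0 and 56.6 on GFP arrays. It was called in neither comparison (adjusted p = 0.97 and 0.41).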
